A study of Homo sapiens with 7 samples.

Results

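A set of 10 genes of the WNT pathway was followed across the RNA-seq libraries of MDA-MB-231, an established human triple-negative breast cancer line of mesenchymal character: 3 ligands (WNT5A, WNT5B, WNT7B), the secreted antagonist DKK1, the scaffold AXIN2, beta-catenin (CTNNB1) and the 4 LEF/TCF transcription factors (LEF1, TCF7, TCF7L1, TCF7L2). They were chosen by symbol, with earlier results of these data known, and are 10 of the 57773 genes in the deposited table. The series concerns APE1, the base excision repair endonuclease, and its binding to G-quadruplexes, folds of guanine-rich DNA held together by stacked guanines. The 2 libraries labelled KD (n = 2) were compared with 3 libraries labelled parent (n = 3). All 5 come from MDA-MB-231, and their labels give no treatment, time or vector for single libraries. A shared treatment protocol describes cells knocked out for APE1, transduced with a doxycycline-inducible vector carrying wild-type or mutant APE1 and selected with blasticidin, but does not say which of these steps the sequenced cells went through. KD is not spelled out, nor is it stated whether the KD cells are 1 clone.

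WNT proteins are lipid-modified secreted ligands. In the canonical branch they bind a Frizzled receptor and LRP5 or LRP6, which stops the destruction complex of AXIN, APC and GSK3 from marking beta-catenin for degradation. Beta-catenin then enters the nucleus and joins LEF/TCF factors, which otherwise sit on their targets with Groucho/TLE repressors. AXIN2 and DKK1 are both feedback inhibitors and targets of this branch. WNT5A and WNT5B are best known for signalling without beta-catenin, through ROR receptors and the planar polarity and calcium routes, which are tied to migration of breast cancer cells.

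Promoter windows of LEF1, TCF7L1, TCF7L2 and the antagonist DKK1 are shown first, since the series asks about G-quadruplexes. These genes were picked since LEF1, TCF7L1 and DKK1 were lower in KD while TCF7L2 was higher. Each line is the RefSeq window from 250 bases before to 50 bases after an annotated start, 5′ to 3′ on the gene's own strand, build GRCh38.p14. Capitals mark bases that fit 4 runs of GGG or longer with 1 to 7 bases between runs, which appear as C runs where the motif lies on the opposite strand, and also the LEF/TCF core letters CTTTGAA or CTTTGAT on either strand. The windows are LEF1 at chr4:108166252-108166551 (minus strand), TCF7L1 at chr2:85133142-85133441 (plus strand), the first of 3 windows of TCF7L2 at chr10:112949997-112950296 (plus strand) and DKK1 at chr10:52314031-52314330 (plus strand).
LEF1: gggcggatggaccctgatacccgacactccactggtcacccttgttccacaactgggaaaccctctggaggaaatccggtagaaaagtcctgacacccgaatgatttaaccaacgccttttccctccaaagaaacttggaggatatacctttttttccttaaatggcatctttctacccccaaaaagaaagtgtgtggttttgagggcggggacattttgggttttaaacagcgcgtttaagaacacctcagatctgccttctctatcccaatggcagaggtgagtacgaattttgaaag
TCF7L1: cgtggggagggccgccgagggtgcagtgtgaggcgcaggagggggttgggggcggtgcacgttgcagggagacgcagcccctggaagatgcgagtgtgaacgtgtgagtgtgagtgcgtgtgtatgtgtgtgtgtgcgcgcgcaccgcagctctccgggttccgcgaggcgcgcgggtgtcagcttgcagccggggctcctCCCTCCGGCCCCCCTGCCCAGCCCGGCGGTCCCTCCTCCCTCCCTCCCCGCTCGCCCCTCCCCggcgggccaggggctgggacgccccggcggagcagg
TCF7L2: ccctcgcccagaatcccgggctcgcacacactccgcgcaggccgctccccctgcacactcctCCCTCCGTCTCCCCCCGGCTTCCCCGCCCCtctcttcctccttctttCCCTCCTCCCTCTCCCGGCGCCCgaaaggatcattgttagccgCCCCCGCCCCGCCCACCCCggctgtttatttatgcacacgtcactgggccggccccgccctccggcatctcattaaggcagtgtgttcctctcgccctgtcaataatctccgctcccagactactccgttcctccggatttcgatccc
DKK1: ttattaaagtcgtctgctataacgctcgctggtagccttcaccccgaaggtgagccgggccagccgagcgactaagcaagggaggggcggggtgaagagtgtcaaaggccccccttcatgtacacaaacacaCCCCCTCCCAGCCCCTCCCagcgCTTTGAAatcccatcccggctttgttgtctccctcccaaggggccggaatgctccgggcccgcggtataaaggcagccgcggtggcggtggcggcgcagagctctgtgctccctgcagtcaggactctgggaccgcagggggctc

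The single LEF1 window held neither motif, with a G+C content of 47%, and no other start of this gene was searched. TCF7L1 held 1 G-quadruplex stretch of 63 bases that runs across the start site, and its window was 74.3% G+C. The TCF7L2 window shown held 3 stretches upstream of the start, while the second window of this gene held 0 and the third 1. Of the TCF7 windows, which are not shown, the first held 2 stretches and the second 0. DKK1 held 1 stretch of 19 bases, followed within a few bases by the LEF/TCF core CTTTGAA on the gene's strand. Windows were found for 8 of the 10 genes, 13 in all, and 7 of the 13 held the G-quadruplex motif, in 6 genes (TCF7L1, CTNNB1, WNT5A, TCF7, DKK1 and TCF7L2). Of all 35116 promoter windows of this length, 25% held it and 6.86% held a LEF/TCF core, with a median G+C content of 58.7%. The motif stood in windows of genes that were lower in KD (DKK1, TCF7L1), higher (CTNNB1, TCF7L2) and not called (TCF7), and was not found in those of LEF1 and WNT5B. A match gives letters only and shows no structure or binding.

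Library totals ran from 14601078 to 18049386 counts, with TMM scaling factors of 0.987 to 1.01. APEX1, the gene for APE1, had 640 and 753 counts in KD against 1936 to 2413 in parent, 2.84-fold lower (edgeR adjusted p = 5.87e-05), in the direction of the labels. The line's identity was checked on marker lists. The 6 mesenchymal markers used were all detected, with CD44 and VIM highest. Of the 12 luminal or epithelial markers, ESR1, FOXA1 and GRHL2 were at 0 in every library. KRT8 (673 CPM in KD, 578 CPM in parent) and KRT18 (371 and 334 CPM) were the highest of that list. The mesenchymal markers summed to 6533 to 6691 CPM in KD and 7525 to 7952 CPM in parent. Of the 6 tested, 4 were called lower and 0 higher, beside 12.4% and 9.15% of all tested genes. The luminal or epithelial markers summed to 1485 to 1500.2 CPM in KD and 1327 to 1384 CPM in parent. Of the 7 tested, 3 were called higher and 0 lower, beside the same 9.15% and 12.4%. Of 7 leukocyte markers 5 were at 0 throughout, PTPRC and CD3E among them, and the list's sum was carried by CD68 (129 CPM in KD, 104 CPM in parent). Of 7 fibroblast markers DCN and FAP were at 0 throughout, and the sum was 84.1 to 98.2 CPM in KD and 50.9 to 71.9 CPM in parent, led by PDGFRB. The 4 endothelial markers summed to at most 1.02 CPM. Of the leukocyte markers 1 of 2 tested was called lower, and of the fibroblast markers 1 of 3 tested was called higher. The part of these shifts in the results below was not tested.

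Of the 10 genes, 4 were lower in KD (LEF1, WNT7B, DKK1, TCF7L1), 3 were higher (AXIN2, CTNNB1, TCF7L2), 2 did not pass the test (WNT5B, TCF7) and WNT5A was not tested, being at 0 in all libraries. Among all 16198 tested genes, 12.4% were called lower and 9.15% higher at a Benjamini-Hochberg adjusted p under 0.05 in edgeR's quasi-likelihood test. LEF1 and TCF7L1 passed the filter on low counts only through the parent libraries, so neither could have been tested without being higher there. The falls were large, from 2.13-fold to at least 90.7-fold, and the rises small, from 1.14-fold to 1.75-fold. In all 9 tested genes the groups did not overlap, with 5 higher and 4 lower in KD, against 25.3% and 26.1% of all tested genes that lie apart in these directions (51.4% together). The median log2 fold change of the 9 was 0.17, beside 0.00085 for all tested genes. Levels below are in CPM, the count scaled to a common library total after TMM adjustment, given as mean ± SD. In bulk RNA, fewer cells with a transcript and less of it in each cell cannot be told apart.

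**Figure D1:**
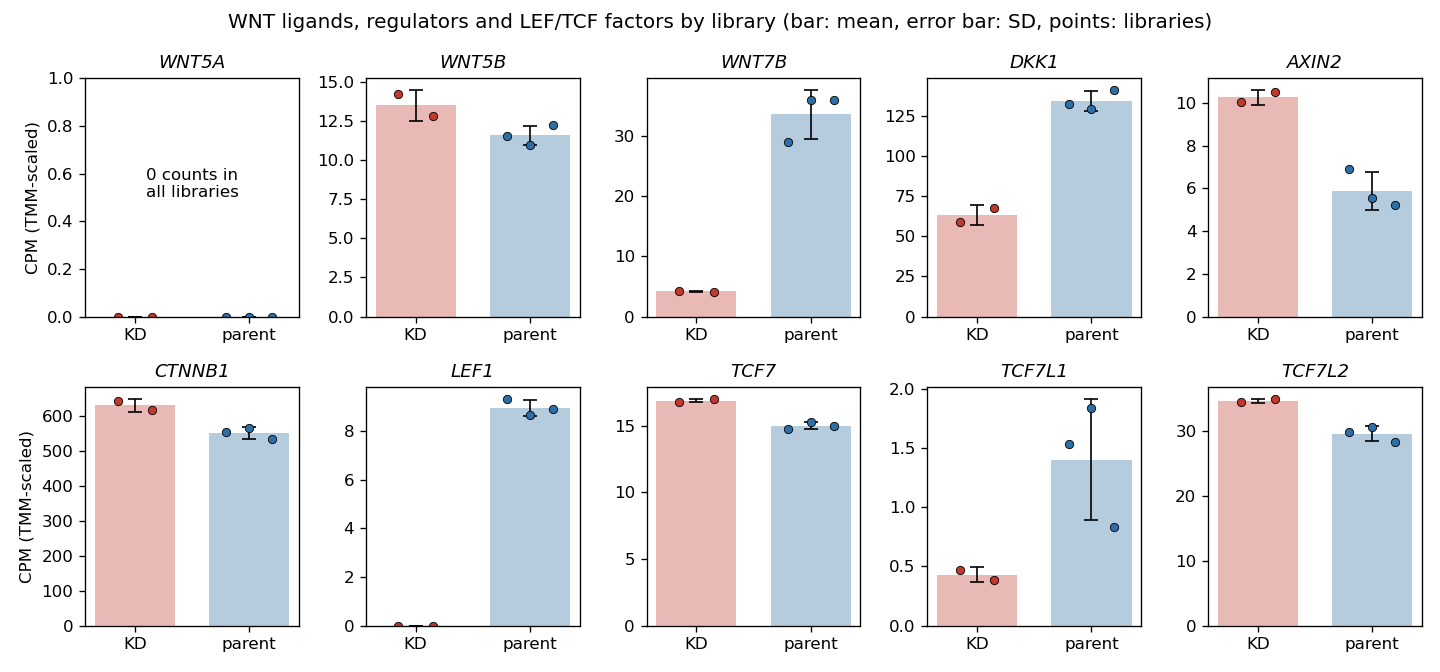
CPM on TMM-scaled libraries (y axis, a scale of its own in each panel, starting at 0) for the 10 genes in KD (n = 2) and parent (n = 3). Bars are means, error bars SD and points single libraries; LEF1 is at 0 in both KD libraries and at 8.67 to 9.33 CPM in parent, and WNT5A is at 0 everywhere.

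Among the ligands, WNT7B was lower in KD and WNT5B did not pass the test. WNT7B (ENSG00000188064), which can signal through beta-catenin and is known from lung and kidney development, stood at 4.20 and 4.17 CPM in KD replicates 1 and 2 and at 29.0, 36.1 and 36.0 CPM in parent replicates 1, 2 and 3. Both KD libraries were far below every parent library and close to each other. The mean fell from 33.7 ± 4.07 to 4.18 ± 0.0227 CPM, 8.06-fold, with a log2 fold change of -3.01 ± 0.14 (SE, edgeR adjusted p = 5.01e-05).

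WNT5B (ENSG00000111186), a ligand of the branch without beta-catenin, was measured at 14.2 and 12.8 CPM in KD and at 11.6, 10.997 and 12.2 CPM in parent. The KD values lay above those of parent, by little more than the spread within either group. The log2 difference was 0.22 ± 0.10 (SE, edgeR adjusted p = 0.181), and the 95% interval of the KD to parent ratio ran from 0.983 to 1.38. WNT5A (ENSG00000114251), the closest relative of WNT5B in the family, had 0 counts in all 5 libraries. With 3 counts as the upper limit for a count of 0, this allows up to 0.0988 CPM over the KD group and 0.0623 CPM over the parent group, for counting error only. WNT5A-AS1, LEF1-AS1 and TCF7L1-IT1, the non-coding genes named after members, were also at 0 in all 5 libraries.

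DKK1 (ENSG00000107984), which blocks WNT signalling by binding LRP5 and LRP6, was lower in KD. It stood at 58.7 and 67.5 CPM in KD and at 132, 129 and 141 CPM in parent. Both KD libraries were well below the lowest parent library. The mean was 63.1 ± 6.21 CPM in KD against 134.3 ± 6.11 CPM in parent, 2.13-fold lower, with a log2 fold change of -1.09 ± 0.0773 (SE, edgeR adjusted p = 0.000239).

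AXIN2 (ENSG00000168646), the inducible scaffold of the destruction complex and a widely used readout of beta-catenin activity, was higher in KD. The KD libraries held 148 and 164 counts of it, and the parent libraries 108, 81 and 93. On the CPM scale these were 10.02 and 10.5 in KD against 6.90, 5.53 and 5.20 in parent, so the KD libraries were the 2 highest. The mean rose 1.75-fold, from 5.88 ± 0.902 to 10.3 ± 0.346 CPM (log2 fold change 0.81 ± 0.15, SE, edgeR adjusted p = 0.0107). Without KD replicate 2 the call was lost (edgeR adjusted p = 0.058, within 0.00569 to 0.058 over the alternatives).

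CTNNB1 (ENSG00000168036), beta-catenin itself, was the member with most counts, at 644 and 618 CPM in KD and 553, 566 and 535 CPM in parent. The lowest KD library was above the highest parent library. The mean of 631 ± 18.7 CPM in KD exceeded that of 551 ± 15.9 CPM in parent 1.14-fold, with a log2 fold change of 0.19 ± 0.0492 (SE, edgeR adjusted p = 0.0327). The call was lost when any 1 of the 5 libraries was left out (edgeR adjusted p = 0.178 and 0.0806 when this was KD replicate 1 or 2, and 0.0611, 0.0643 and 0.103 when it was parent replicate 1, 2 or 3), when low counts were not filtered (0.0535) and with replicate numbers as a block (0.0504). These counts are of RNA and do not measure the stability of the protein, on which the pathway acts.

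The 4 LEF/TCF factors differed in what they showed. LEF1 (ENSG00000138795), a factor named for lymphoid enhancers that often acts as an activator with beta-catenin, was not counted once in either KD library, while the parent libraries held 146, 127 and 159 counts. The parent libraries lay close together, at 9.33, 8.67 and 8.88 CPM. The parent mean was 8.96 ± 0.333 CPM, so LEF1 was at least 90.7-fold lower in KD when the KD group is set at 3 counts in all (edgeR adjusted p = 6.72e-05). Genes called lower with 0 counts in both KD libraries made up 1.03% of those tested, 167 genes in all.

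TCF7L1 (ENSG00000152284), known mainly as a repressor in the family, was near the detection limit, with 7 and 6 counts in KD and 24, 27 and 15 counts in parent. All KD values were below those of parent, but parent replicate 3 lay at 0.838 CPM, between KD (0.474 and 0.385 CPM) and the other parent libraries (1.53 and 1.84 CPM). The level was 3.27-fold lower in KD, with a log2 fold change of -1.68 ± 0.458 (SE, edgeR adjusted p = 0.0421). The call was lost on leaving out KD replicate 1 (edgeR adjusted p = 0.144), KD replicate 2 (0.183), the first parent library (0.0774) or the second (0.11), when low counts were not filtered (0.0613) and in DESeq2 (0.08), and the authors' deposited table gives it an adjusted p of 0.148.

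TCF7L2 (ENSG00000148737), the factor best known from the gut and from type 2 diabetes genetics, stood at 34.4 and 34.9 CPM in KD and 29.8, 30.6 and 28.3 CPM in parent. Every KD value was above every parent value. The mean of 34.6 ± 0.331 CPM in KD exceeded that of 29.6 ± 1.15 CPM in parent 1.17-fold, with a log2 fold change of 0.23 ± 0.0628 (SE, edgeR adjusted p = 0.0436). This call was lost when any 1 of the 5 libraries was left out (edgeR adjusted p = 0.167 and 0.208 when this was KD replicate 1 or 2, and 0.0672, 0.0873 and 0.122 when it was parent replicate 1, 2 or 3), when low counts were not filtered (0.108), in DESeq2 (0.176) and with replicate numbers as a block (0.068), and the authors' deposited table gives an adjusted p of 0.316.

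TCF7 (ENSG00000081059), the T cell factor also called TCF-1, stood at 16.8 and 17.0 CPM in KD and 14.8, 15.3 and 14.98 CPM in parent. The groups did not overlap, yet the difference did not pass the test (log2 difference 0.17 ± 0.0815, SE, edgeR adjusted p = 0.189). The 95% interval of the KD to parent ratio was 0.984 to 1.29. Relative to its own parent level, each factor thus had a KD level of 1.13 (TCF7), 1.17 (TCF7L2), 0.306 (TCF7L1) and 0 (LEF1). Levels were not compared between these factors, because no transcript lengths of the annotation were used. Orders of genes by CPM or counts given elsewhere are not corrected for length.

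**Figure D2:**
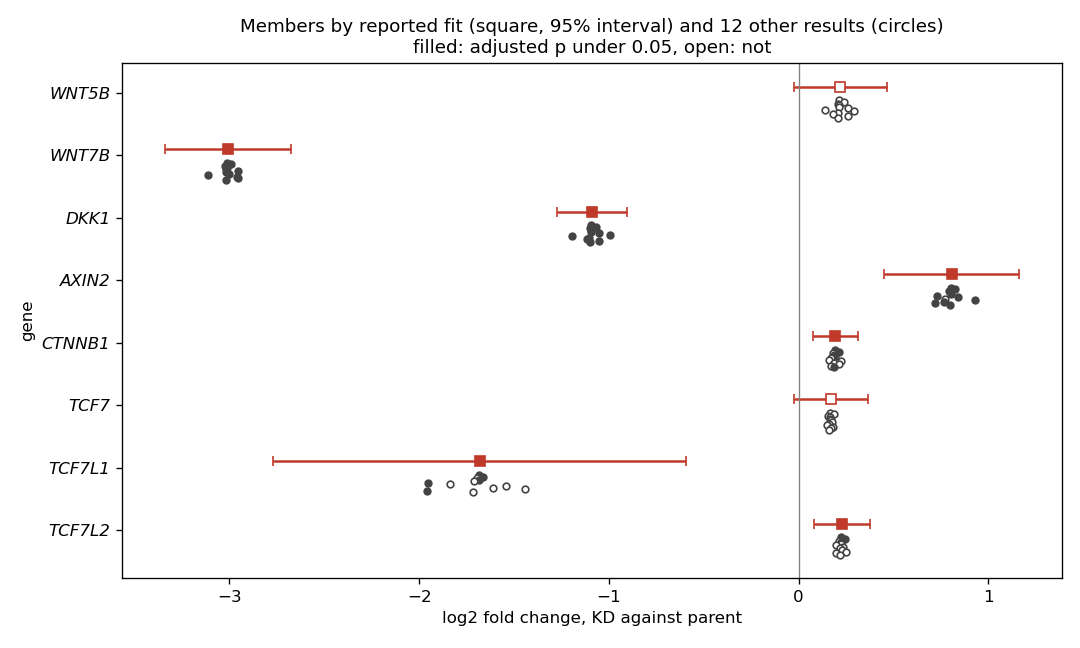
Log2 fold change, KD against parent (x axis), for the 8 tested genes other than LEF1 (y axis). Squares with bars are the reported fit and its 95% interval, and circles are 12 other results (other scaling, filter or test, a replicate block, each library left out, and the authors' deposited table); filled marks have an adjusted p under 0.05. No value changed sign, WNT7B and DKK1 are filled throughout, AXIN2 has 1 open circle, and CTNNB1, TCF7L1 and TCF7L2 have several.

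**Figure D3:**
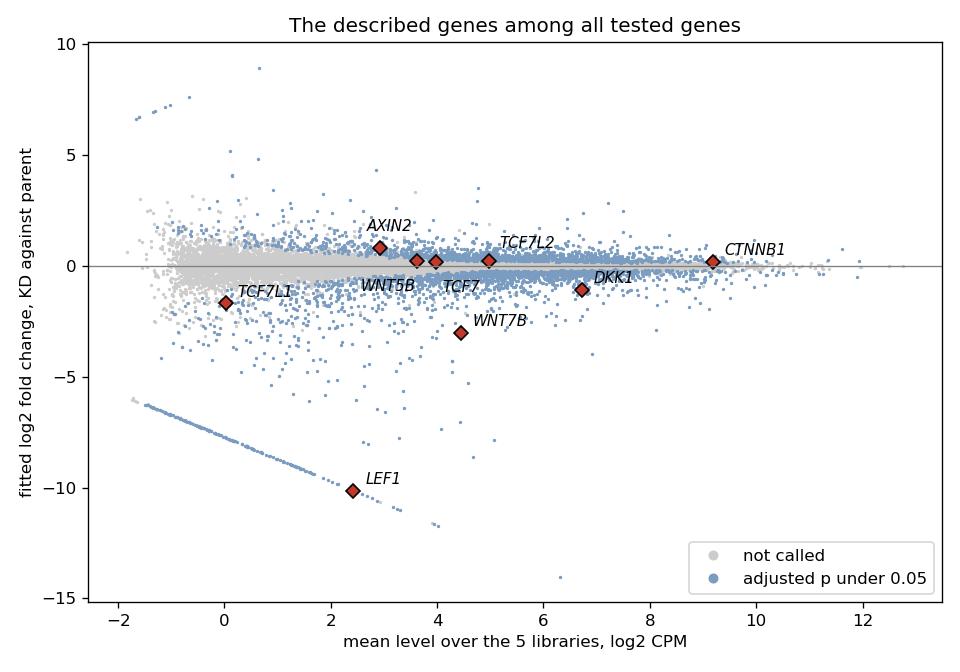
Fitted log2 fold change, KD against parent (y axis), against the mean level over the 5 libraries on a log2 CPM axis (x axis) for all 16198 tested genes, with the 9 tested WNT genes as diamonds. LEF1 lies on the lower line formed by genes with 0 counts in both KD libraries, where the fitted value depends on the prior count and is no measured fold.

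The rank of each gene among all tested genes by log2 fold change gives its place in the whole comparison. LEF1, WNT7B, TCF7L1 and DKK1 had 0.0803%, 1.66%, 3.08% and 4.83% of tested genes below them. AXIN2 had 96.5% below it, and CTNNB1, WNT5B, TCF7L2 and TCF7 had between 73.3% and 78.9%. For members called with at least a 2-fold change, the 3 tested genes with the nearest log2(CPM + 1) profile, each centred on its own mean, were found over the 5 libraries by Euclidean distance. For LEF1 they were TMEM71 (distance 0.0535), ZNF704 (0.19) and PTN, the growth factor pleiotrophin (0.255). For WNT7B they were TNFRSF11A, the RANK receptor (0.211), CXorf57 (0.236) and MOB3B (0.26), and for DKK1 the transcription factor MAFF (0.0597), the phosphatase PTPN13 (0.0772) and the lipase MGLL (0.0883). For TCF7L1 they were ACRC (0.161), FAM162A (0.179) and SMCO4 (0.202). The profiles hold 5 libraries in 2 groups, so genes with a like group difference in log2(CPM + 1) lie near each other. The added 1 CPM shrinks differences at low levels, so near genes need not share a fold. MAFF was 2.16-fold lower in KD, beside 2.13-fold for DKK1. TNFRSF11A was 36.4-fold lower, beside 8.06-fold for WNT7B, and FAM162A 1.61-fold lower, beside 3.27-fold for TCF7L1.

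The rest of the pathway was described with a list of 135 further genes sorted by role, of which 98 were tested. Of these, 15 (15.3%) were higher and 33 (33.7%) lower in KD, beside 9.15% and 12.4% of all tested genes, and the median log2 fold change was -0.04. The list was chosen with earlier results of these data known, so this contrast is a description only. Of the 33 lower, 5 (LGR5, SOX4, ID2, DAAM2 and NFATC4) passed the filter on low counts only through the parent libraries, and 1 of the 15 higher (WNT10B) only through the KD libraries. These 6 could be tested only by being high in that group. They are included in the counts here and by role below, where their calls carry no weight of their own. Some genes stand in more than 1 list.

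Among the 16 other WNT ligands, 7 were at 0 in all libraries and 6 were tested. Of these 6, 2 (33.3%) were higher and 1 (16.7%) lower, beside 9.15% and 12.4% of all tested genes. WNT11, a ligand of the branch without beta-catenin, rose 2.37-fold to 5.69 ± 1.25 CPM (edgeR adjusted p = 0.0151), a call lost without KD replicate 1 (0.101) or parent replicate 2 (0.0594) within 0.00655 to 0.101. WNT10B had 20 and 15 counts in KD and 0 in all parent libraries, at least 18.6-fold higher against 3 counts over the parent group. Of all tested genes, 0.0556% were called higher with 0 counts in every parent library. WNT9A fell 4.01-fold from 3.19 ± 0.849 CPM (edgeR adjusted p = 0.00755, lost without KD replicate 2 at 0.052, within 0.000894 to 0.052). The called ligands lay in both directions, but WNT10B was testable only through KD. The calls of WNT11 and WNT9A could each be lost by leaving out 1 library. The 2 tested secretion genes also differed in direction. WLS, which carries WNT proteins to the cell surface, fell 1.44-fold to 56.6 ± 1.2 CPM (edgeR adjusted p = 0.00238). PORCN, the enzyme that attaches their lipid, rose 1.51-fold to 39.3 ± 6.84 CPM (edgeR adjusted p = 0.0311), which was lost on leaving out KD replicate 1 (0.183), or parent replicate 2 or 3 (0.105 and 0.071), and when low counts were not filtered (0.0574), all within 0.00306 to 0.183.

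Of 13 tested receptors and co-receptors, 8 (61.5%) were lower and 2 (15.4%) higher, beside 12.4% and 9.15% of all tested genes. Their median log2 fold change was -0.44. The Frizzled receptor FZD1 fell 2.52-fold, from 26.6 ± 0.396 to 10.6 ± 0.969 CPM (edgeR adjusted p = 0.000183), and FZD6 1.41-fold to 61.5 ± 0.388 CPM (edgeR adjusted p = 0.00144). The co-receptor PTK7 fell 1.70-fold to 56.6 ± 5.69 CPM (edgeR adjusted p = 0.00184). ROR2, a receptor for WNT5A-type ligands, rose 2.48-fold, from 10.1 ± 1.66 to 25.01 ± 1.11 CPM (edgeR adjusted p = 0.00112). Its relative ROR1, named here after its values were seen, measured 31.5 ± 3.9 CPM in KD and 58.0 ± 4.77 CPM in parent, a 1.84-fold fall (edgeR adjusted p = 0.00192). The paired receptors of the branch without beta-catenin therefore lay on opposite sides, with no overlap of groups in either.

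Of 3 other tested secreted antagonists, 1 (33.3%) was lower and 0 were higher, beside 12.4% and 9.15% of all tested genes. SOST, the sclerostin gene, whose product binds LRP5 and LRP6 as DKK1 does, fell 5.77-fold from 80.8 ± 12.8 to 14.0 ± 4.92 CPM (edgeR adjusted p = 0.000606). One list joined the R-spondin axis, which protects Frizzled receptors from degradation, with the DKK1 receptors KREMEN1 and KREMEN2. Of its 6 tested genes, LGR4 and KREMEN1 (33.3%) were called higher and LGR5 (16.7%) lower, beside 9.15% and 12.4% of all tested genes. RNF43, ZNRF3 and KREMEN2 were not called. The R-spondin receptor LGR4 rose 1.58-fold to 85.8 ± 4.17 CPM (edgeR adjusted p = 0.001), and KREMEN1, a receptor for DKK1, rose 1.56-fold to 87.2 ± 6.04 CPM (edgeR adjusted p = 0.00444). LGR5, a stem cell marker and pathway target, was at 0 counts in KD against 10 to 17 in parent, at least 8.31-fold lower. It passed the filter on low counts only through the parent libraries.

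Of 17 tested Dishevelled and destruction complex genes other than AXIN2, 2 (11.8%) were higher, close to the 9.15% of all tested genes, and 0 were lower beside 12.4%. Their median log2 fold change was -0.01. These were DVL3, 1.15-fold higher (edgeR adjusted p = 0.0365), and APC2, 1.55-fold higher (edgeR adjusted p = 0.0449). Both calls were lost when any 1 library was left out, with edgeR adjusted p from 0.0648 to 0.219 for DVL3 and from 0.0522 to 0.238 for APC2. Among 16 tested nuclear partners of beta-catenin, 2 (12.5%) rose and 3 (18.8%) fell, near the 9.15% and 12.4% of all tested genes. CTNNBIP1, also called ICAT, which keeps beta-catenin from LEF/TCF factors, fell 2.12-fold, from 25.5 ± 1.09 to 12.04 ± 1.17 CPM (edgeR adjusted p = 0.000501). The acetyltransferase EP300 rose 1.39-fold (edgeR adjusted p = 0.00353) and the co-repressor TLE3 1.21-fold (edgeR adjusted p = 0.00865, lost without KD replicate 2 at 0.0909, within 0.000239 to 0.0909). The co-activator BCL9 fell 1.29-fold (edgeR adjusted p = 0.00974, lost without KD replicate 1 at 0.0721, within 0.00329 to 0.0721).

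**Figure D4:**
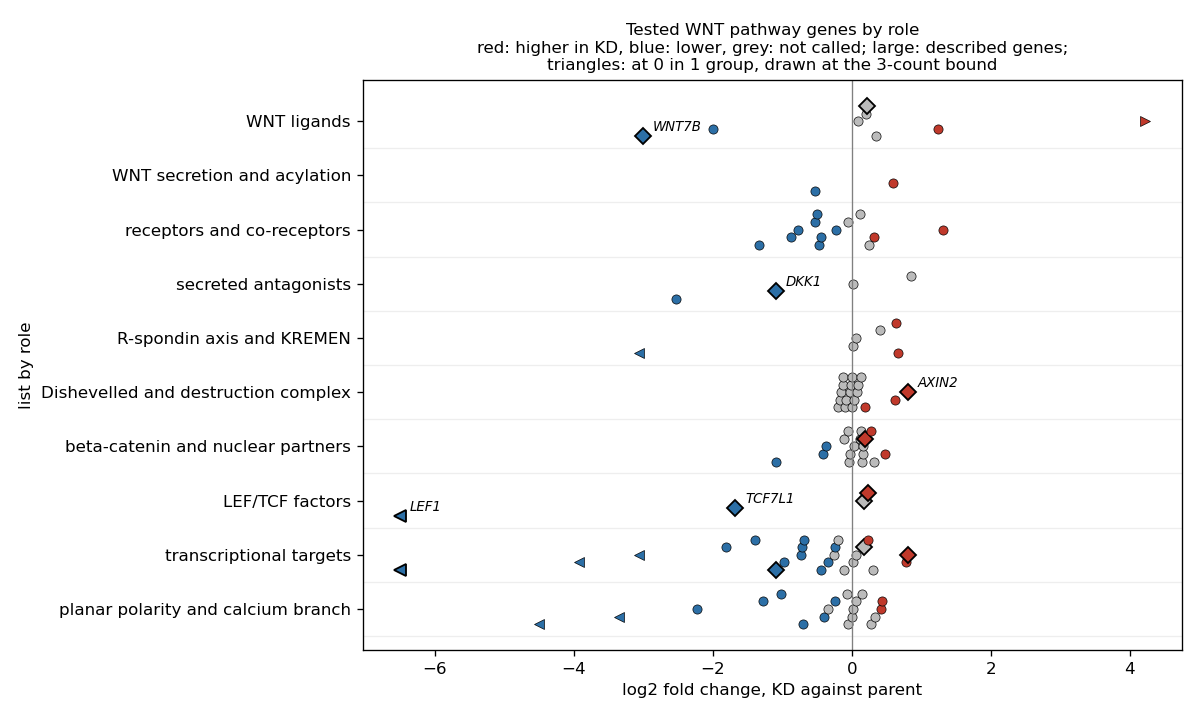
Log2 fold change, KD against parent (x axis), of each tested WNT pathway gene by role (y axis; points are spread vertically only to separate them). Red marks are higher in KD, blue lower and grey not called, larger marks are the 10 described genes where tested, and triangles are genes at 0 in 1 group, drawn at their 3-count bound; blue marks prevail among receptors and targets, and most of the destruction complex lies near 0.

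Of 19 tested target genes other than members, 11 (57.9%) were lower and 2 (10.5%) higher, beside 12.4% and 9.15% of all tested genes. Their median log2 fold change was -0.34, on the side opposite to AXIN2. Of the 11 lower, LGR5, SOX4 and ID2 passed the filter on low counts only through the parent libraries. Many of these targets also answer to other pathways. FOSL1, an AP-1 subunit, fell 2.61-fold to 124 ± 32.1 CPM (edgeR adjusted p = 0.00245). BMP4, a morphogen, fell 1.65-fold to 40.9 ± 0.509 CPM (edgeR adjusted p = 0.000495), and the growth regulator MYC 1.60-fold to 71.5 ± 4.39 CPM (edgeR adjusted p = 0.00137). EPHB3, an ephrin receptor, rose 1.72-fold to 14.5 ± 0.795 CPM (edgeR adjusted p = 0.00238). RNF43 and ZNRF3, feedback ligases that like AXIN2 are induced by the pathway, were not called (named after their values were seen), with log2 differences of 0.07 ± 0.0692 and 0.02 ± 0.0861 (SE, edgeR adjusted p = 0.549 and 0.911).

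In the planar polarity and calcium branch, 8 (42.1%) of 19 tested genes were lower and 2 (10.5%) higher, beside 12.4% and 9.15% of all tested genes. Their median log2 fold change was -0.07. Of the 8 lower, DAAM2 and NFATC4 passed the filter on low counts only through the parent libraries. NFATC2, a calcium-regulated transcription factor, fell 4.70-fold, from 34.4 ± 3.72 to 7.33 ± 0.786 CPM (edgeR adjusted p = 0.000109). NFATC4 was at 0 counts in KD against 33 to 38 in parent, at least 22.7-fold lower. The calcium-dependent kinase subunit CAMK2D fell 2.44-fold to 12.5 ± 0.491 CPM (edgeR adjusted p = 0.000212), and MAPK8, the kinase JNK1, 1.62-fold to 33.5 ± 2.7 CPM (edgeR adjusted p = 0.00111).

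The number of listed pathway genes higher in KD, 15 in all, dropped to 8 or 9 when KD replicate 1 or 2 was left out, and to 7 when parent replicate 2 was. The number of the 10 genes higher in KD was 0 without KD replicate 2 and 1 without any other library. Over all genes, the calls higher and lower were 553 and 1270 on leaving out KD replicate 1, 755 and 1321 on leaving out KD replicate 2, and 709 and 1320 on leaving out parent replicate 2, against 1482 and 2003 with all 5 libraries.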

How the data were processed

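RNA-seq was analysed in 5 MDA-MB-231 libraries, grouped by their titles into KD (n = 2) and parent (n = 3). Nothing in the labels ties replicates to different cultures, and the p-values therefore cover the spread between these libraries alone, possibly a technical one. The 2 chromatin immunoprecipitation samples were not analysed here. The authors deposited expected counts per gene and per transcript, as whole numbers whose library totals are equal in both tables. STAR, DESeq2 and the build hg19 appear without versions in the submitters' processing notes. For the counting tool, annotation and strand, nothing is stated in the sources used here, so reads of antisense partners cannot be told apart. Transcripts were not assigned to genes. Per the file headers, the authors' deposited comparison gives per gene the mean normalised signal, the log2 fold change and its error, the Wald score, the p-value and its adjusted value.

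Genes were filtered with filterByExpr (minimum count 10, minimum total 15), leaving 16198 of 57773, of which 28957 were at 0 throughout. Counts were TMM-scaled and fitted with the quasi-likelihood test of edgeR 4.0.16 (R 4.3.3) on group alone, with 3 residual degrees of freedom. P-values were Benjamini-Hochberg adjusted over all tested genes (threshold 0.05). The standard error is the log2 fold change divided by the root of F. Genes at 0 in a group are given a bound from 3 counts over that group. The code was tested on simulated counts. Alternatives were DESeq2 1.42.0 and its size factors, library totals alone, 2 other filters, a replicate block, each library left out in turn and, for promoters, longer loops.

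Members and lists were chosen with earlier results of these data known. Named genes were all members, APEX1, up to 4 called genes per list by adjusted p, and the nearest profiles. Others are marked. Promoter windows came from RefSeq (GRCh38.p14), whose build differs from that of the reads, and were matched by symbol. The planned comparison of LEF/TCF proteins was not done because no protein sequences were used here. From the planned marker lists, 2 genes are not reported here and were left out of the sums.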

Additional observations from a re-analysis of the deposited data

How the results depend on the processing

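Of the tested genes named here as members, by role or as nearest profiles, only ZNRF3, which was not called, changed sign, with log2 differences from -0.0258 without parent replicate 2 to 0.0712 without parent replicate 3 as each library was left out. LEF1, WNT7B and DKK1 kept their calls in all 12 alternatives, and WNT5B and TCF7 stayed above the threshold in all 12. LEF1 and TCF7L1 passed the filter on low counts only through the parent libraries, so their calls in filtered fits follow in part from that filter. AXIN2 lost its call in 1, CTNNB1 in 7, TCF7L1 in 7 and TCF7L2 in 9. The number of the 10 genes higher in KD was 3 in the reported fit, 1 with no filter on low counts and 1 with the replicate block. With each library left out in turn it was 0 to 1, and the number lower was 3 to 4. The listed pathway genes gave 7 to 13 higher and 25 to 31 lower, and all tested genes 553 to 1413 higher and 1270 to 1970 lower. The authors' deposited table holds 976 genes higher and 1717 lower at its adjusted p under 0.05. The cause of these differences was not tested. Leaving out a KD library leaves 1 KD sample, which is then assumed to vary like the parent group.

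With replicate numbers as a block, 1704 genes were higher and 2236 lower, and 1 and 4 of the 10 genes, so that CTNNB1 and TCF7L2 lost their calls. Deviations from the group means correlated across genes at 0.139 for number 1 and at 0.0056 for number 2. With 2 KD libraries their deviations mirror each other, so these values cannot decide whether an equal number marks a shared batch. Longer loops of up to 12 bases put the G-quadruplex motif in 8 of 13 promoter windows in place of 7, and in 37.8% of all windows. At this depth a gene under about 0.2 CPM in a library has fewer than 3 counts, which limits WNT5A in all libraries and LEF1 in KD.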

Other observations

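Among the 145 listed WNT pathway genes, 6 had 0 counts in both KD libraries and counts in every parent library, and 5 of these were called lower. Among all tested genes, 1.03% were called lower with 0 counts in both KD libraries. These 5 passed the filter on low counts only through the parent libraries, so their calls follow in part from the filter. The 6 genes were LEF1, LGR5 and NFATC4 (values in the report) and 3 genes singled out after their values were seen. SOX4, a transcription factor of progenitor cells, had 28, 25 and 18 counts in parent replicates 1, 2 and 3 (at least 15.2-fold lower). DAAM2, a formin of the planar polarity branch, had 20, 18 and 9 counts (at least 10.2-fold lower). NKD1, a feedback inhibitor that binds Dishevelled, had 7 counts in each parent library and did not pass the filter on low counts. In the other direction, WNT10B and the receptor FZD9 had 0 counts in all parent libraries and counts in both KD libraries, FZD9 with only 1 and 5. WNT10B alone of these was tested, and 0.0556% of all tested genes were called higher with 0 counts in every parent library. These bounds cover counting error only.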
